A study of Mus musculus with 3 samples.

Results

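Desmosomes are the spot junctions that hold keratinocytes together, and this report follows the UMI counts of 9 mouse desmosome genes through 4 classes of keratinocytes in skin. The genes were the desmogleins *Dsg1a*, *Dsg2*, *Dsg3* and *Dsg4*, the desmocollins *Dsc1*, *Dsc2* and *Dsc3*, and the plaque proteins desmoplakin (*Dsp*) and plakoglobin (*Jup*). They were chosen by name among all genes counted, with earlier results of these data known, and all 9 were detected. Dorsal skin of female 25-week-old C3H/HeN mice was dissociated and its cells sequenced in droplets as 3 libraries, each the pooled skin of 7 to 8 mice. Neg is the negative vehicle control. AA is an alopecia areata model, made by transfer of skin-draining lymph node cells, and AA+Ab is the same model given an antibody that neutralizes the chemokine CXCL12. The groups share strain, sex, age and digestion with collagenase D, and no group carries an engineered allele. With 1 pooled library per group there is no replicate between groups, and pooling leaves the differences between mice unseen.

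In a desmosome, the desmogleins and desmocollins are cadherins that span the membrane and bind partners on the next cell. Inside the cell, plakoglobin and the plakophilins bind their tails, and desmoplakin ties the plaque to the keratin filaments. The epidermis and the hair follicle use different cadherins at different depths: Dsg3 and Dsc3 are known for the lower layers, Dsg1 and Dsc1 for the upper layers, and Dsg4 for the hair shaft. Antibodies against Dsg3 and Dsg1 cause pemphigus, and loss of Dsg4 causes fragile hair in the lanceolate mouse.

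By the GENCODE M21 annotation of GRCm38 (mm10), *Dsp* (ENSMUSG00000054889) spans chr13:38151294-38198577 (plus strand) and *Jup* (ENSMUSG00000001552) spans chr11:100368958-100397763 (minus strand). RefSeq promoter windows on build GRCm38.p6 were matched for 2 of the 9 members. The 250 bases before the start of *Dsp* (chr13:38151044-38151293, plus strand) and of *Jup* (chr11:100397791-100398040, minus strand) are shown because these were the matched members. Capitals mark a GC box (GGGCGG) or a CCAAT box (CCAAT), searched on both strands.
Dsp: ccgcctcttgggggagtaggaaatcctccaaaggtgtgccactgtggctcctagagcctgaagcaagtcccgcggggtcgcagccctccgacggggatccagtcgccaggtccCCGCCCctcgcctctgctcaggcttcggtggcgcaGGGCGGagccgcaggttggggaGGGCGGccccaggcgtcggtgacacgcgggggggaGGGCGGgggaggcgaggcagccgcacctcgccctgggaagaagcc
Jup: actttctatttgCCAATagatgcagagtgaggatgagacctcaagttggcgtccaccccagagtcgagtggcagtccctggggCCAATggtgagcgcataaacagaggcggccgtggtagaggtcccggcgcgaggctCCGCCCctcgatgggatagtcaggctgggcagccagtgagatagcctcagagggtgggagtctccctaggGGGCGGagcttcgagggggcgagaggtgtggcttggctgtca
The *Dsp* window held 4 GC boxes and no CCAAT box, and the *Jup* window held 2 GC boxes and 2 CCAAT boxes. Of 32851 promoter windows of this length, 32.7% held a GC box and 33.8% a CCAAT box. G and C made up 72.4% of the *Dsp* window and 62.0% of the *Jup* window, against a median of 52.4%. Neither window held a TATA box (TATAAA, in 12.4% of windows), an AP-1 site (TGANTCA, in 6.75%) or an E-box (CACGTG, in 6.02%). A match or its absence describes only these letters.

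In the same annotation, which held all 9 gene IDs, the 7 cadherin members lie side by side with *Dsg1b* and *Dsg1c* on chromosome 18, between positions 19960930 and 20604521. The desmocollins are on the minus strand and the desmogleins on the plus strand. All are protein-coding. *Dsg1a*, *Dsg1b* and *Dsg1c* are close copies of each other, so reads can be shared or lost among them and the values of *Dsg1a* are uncertain to that degree.

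The libraries held 6965 barcodes (Neg), 10879 (AA) and 10507 (AA+Ab), with totals of 121289374 to 141998364 UMIs, and 14 to 23 barcodes occurred in 2 libraries. Cells with at most 10% mitochondrial UMIs and at least 200 genes numbered 26847, of which 19096 fell into the 4 classes. A cell was called basal or suprabasal when at least 0.5% of its UMIs, and hair shaft or inner root sheath when at least 0.1%, were markers of that class and of no other. Basal cells were defined by *Krt5*, *Krt14*, *Col17a1*, *Itga6* and *Itgb4*, and suprabasal cells by *Krt1*, *Krt10*, *Krt77*, *Krtdap* and *Sbsn*. Hair shaft cells were defined by 11 measured hair keratins such as *Krt33a* and *Krt35*. In that class, 9 of the 11 had UMIs in each library, and the highest keratin gave most of the marker UMIs. This keratin had 4142, 3924 and 4309 UMIs per 1000000 in Neg, AA and AA+Ab, of 4352, 4073 and 4719 for the list. Inner root sheath cells were defined by 8 measured genes such as *Krt25*, *Krt71* and *Tchh*. A class also needed at least 3 marker UMIs in the cell. There were 3730, 6504 and 5537 basal cells in Neg, AA and AA+Ab, 194, 505 and 450 suprabasal cells, 98, 112 and 106 hair shaft cells, and 562, 578 and 720 inner root sheath cells.

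Each class is a range on a marker score. Per library, 674 to 1098 basal, 47 to 74 suprabasal, 30 to 39 hair shaft and 314 to 435 inner root sheath cells lay under 2 times the minimum. The median suprabasal cell had 0.144% to 0.245% of its UMIs in basal markers, and the median basal cell had 0.0215% to 0.0271% in suprabasal markers. A further 6.0%, 4.10% and 4.80% of the cells in Neg, AA and AA+Ab passed as both basal and suprabasal. Another 20.5%, 18.1% and 21.6% passed no minimum and were not called T cells, and T cells were 2.92%, 3.58% and 3.57%. The suprabasal class held few granular cells. The granular layer markers *Lor*, *Ivl*, *Flg*, *Flg2* and *Hrnr* together reached only 63.3 to 86.6 CPM in it, and 1, 4 and 3 of its cells had at least 0.1% of their UMIs in them. A UMI of an upper follicle, bulge or companion layer marker was found in 90.2% to 92.5% of basal cells, but also in 28.3% to 35.6% of the shallower T cells, so it does not tell follicle from epidermis. At least 3 UMIs of proliferation markers (*Mki67*, *Top2a*, *Ccna2*, *Cdk1*, *Ube2c*, *Birc5*) were found in 81.1% to 87.9% of inner root sheath and 31.1% to 58.2% of hair shaft cells. In basal and suprabasal cells, which were less deep than inner root sheath cells, the shares were 8.64% to 13.3% and 4% to 9.79%. Class and proliferation thus differ together in comparisons with these follicle classes.

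Levels are UMIs of a gene per 1000000 UMIs (CPM) over all cells of a class in a library. Each UMI stands for 1 captured transcript, so CPM was not divided by gene length. Genes can differ in capture and in reads lost, as for the *Dsg1a* copies, and this was not measured. Orders and shares between genes are thus those of UMIs, not of transcripts. Differences between layers were tested with edgeR's quasi-likelihood test on the 12 sums (4 classes in 3 libraries) with the library as a block, and a call needed an adjusted p of at most 0.05 over the 14038 genes tested and at least a 2-fold difference. The 3 libraries are the replicates of a layer difference although their conditions differ, and a level over a class does not tell fewer expressing cells from fewer transcripts per cell. T cells, which should lack desmosomes, are given beside each gene as a comparison level.

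*Dsg1a* was the leading desmoglein of the suprabasal cells. Desmoglein 1 is the cadherin of the upper epidermis and the target of exfoliative toxins. Suprabasal cells had 757, 735 and 761 CPM in Neg, AA and AA+Ab, and basal cells 151, 131 and 137 CPM. Hair shaft cells had 42.1, 38.8 and 33.8 CPM, inner root sheath cells 56.2, 51.4 and 44.2 CPM, and T cells 6.77 to 16.1 CPM. The 3 libraries were close within each class and every suprabasal value lay far above every other. On the log2 scale, suprabasal cells exceeded basal cells by 2.56 ± 0.09 (SE, 3 libraries; edgeR adjusted p = 2.76e-10), and hair shaft cells were below basal cells (-2.04 ± 0.11, edgeR adjusted p = 3.49e-09). Hair shaft and inner root sheath cells did not pass the test against each other (-0.29 ± 0.11, edgeR adjusted p = 0.0691), although their libraries did not overlap.

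*Dsg3*, the pemphigus vulgaris antigen, showed the reverse order. Basal cells had 221, 295 and 243 CPM in Neg, AA and AA+Ab, and suprabasal cells 83.1, 113 and 88.9 CPM. Hair shaft cells had 37.4, 19.4 and 23.1 CPM and inner root sheath cells 35.6, 42.9 and 47.7 CPM, with T cells at 11.8 to 21 CPM. The basal and suprabasal ranges were separate, while the values of both inner follicle classes overlapped, and those of the hair shaft in AA and AA+Ab were close to the T cell values. Suprabasal cells were lower than basal cells by a log2 difference of -1.28 ± 0.17 (edgeR adjusted p = 4.02e-05), and hair shaft cells by -3.36 ± 0.21 (edgeR adjusted p = 2.09e-08).

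*Dsg2*, the desmoglein found in simple epithelia and the heart as well as in skin, was also highest in basal cells, with 95.5, 125 and 74.0 CPM in Neg, AA and AA+Ab. Lower values were found in inner root sheath cells with 43.8, 54.4 and 47.7 CPM, in hair shaft cells with 19.9, 23.5 and 28.2 CPM, and in suprabasal cells with 20.4, 10.1 and 13.3 CPM. Unlike *Dsg3*, *Dsg2* was thus lower in suprabasal than in inner root sheath cells in every library, and the suprabasal values were near the 4.43 to 12.4 CPM of T cells. The log2 difference between suprabasal and basal cells was -2.67 ± 0.22 (edgeR adjusted p = 7.27e-07), and inner root sheath cells exceeded suprabasal cells by 1.38 ± 0.23 (edgeR adjusted p = 0.000122). Hair shaft and suprabasal cells did not pass the test (edgeR adjusted p = 0.202). Inner root sheath cells were lower than basal cells by -1.29 ± 0.18, but this call was lost when cells with at least 3 proliferation UMIs were left out (-0.17, edgeR adjusted p = 0.469). That step left 68, 98 and 136 inner root sheath cells in Neg, AA and AA+Ab.

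*Dsg4*, the hair shaft desmoglein, had 95.9, 166 and 130 CPM in hair shaft cells of Neg, AA and AA+Ab. Inner root sheath cells had 2.43, 1.36 and 1.02 CPM and basal cells 0.132, 0.371 and 0.371 CPM. Suprabasal cells had 2, 20 and 0 UMIs in Neg, AA and AA+Ab, and 12 of the 20 in AA came from 1 cell. Outside the hair shaft every value was within the range of 0 to 2.82 CPM seen in T cells. That range rests on only 6 T cell UMIs over the 3 libraries, against 73 UMIs in inner root sheath cells. It spans libraries, so a value within it can lie above the T cells of its own library. Hair shaft cells exceeded basal cells by a log2 difference of 8.56 ± 0.37 (edgeR adjusted p = 6.54e-10) and inner root sheath cells by 6.41 ± 0.36. The difference between suprabasal and basal cells did not pass (2.02 ± 0.81, edgeR adjusted p = 0.0586), and it was -0.43 without the AA library and 2.84 without AA+Ab (edgeR adjusted p = 0.0168). The inner root sheath exceeded basal cells by 2.15 ± 0.54, and this call was lost without the Neg library (1.36, edgeR adjusted p = 0.0531).

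**Figure D1:**
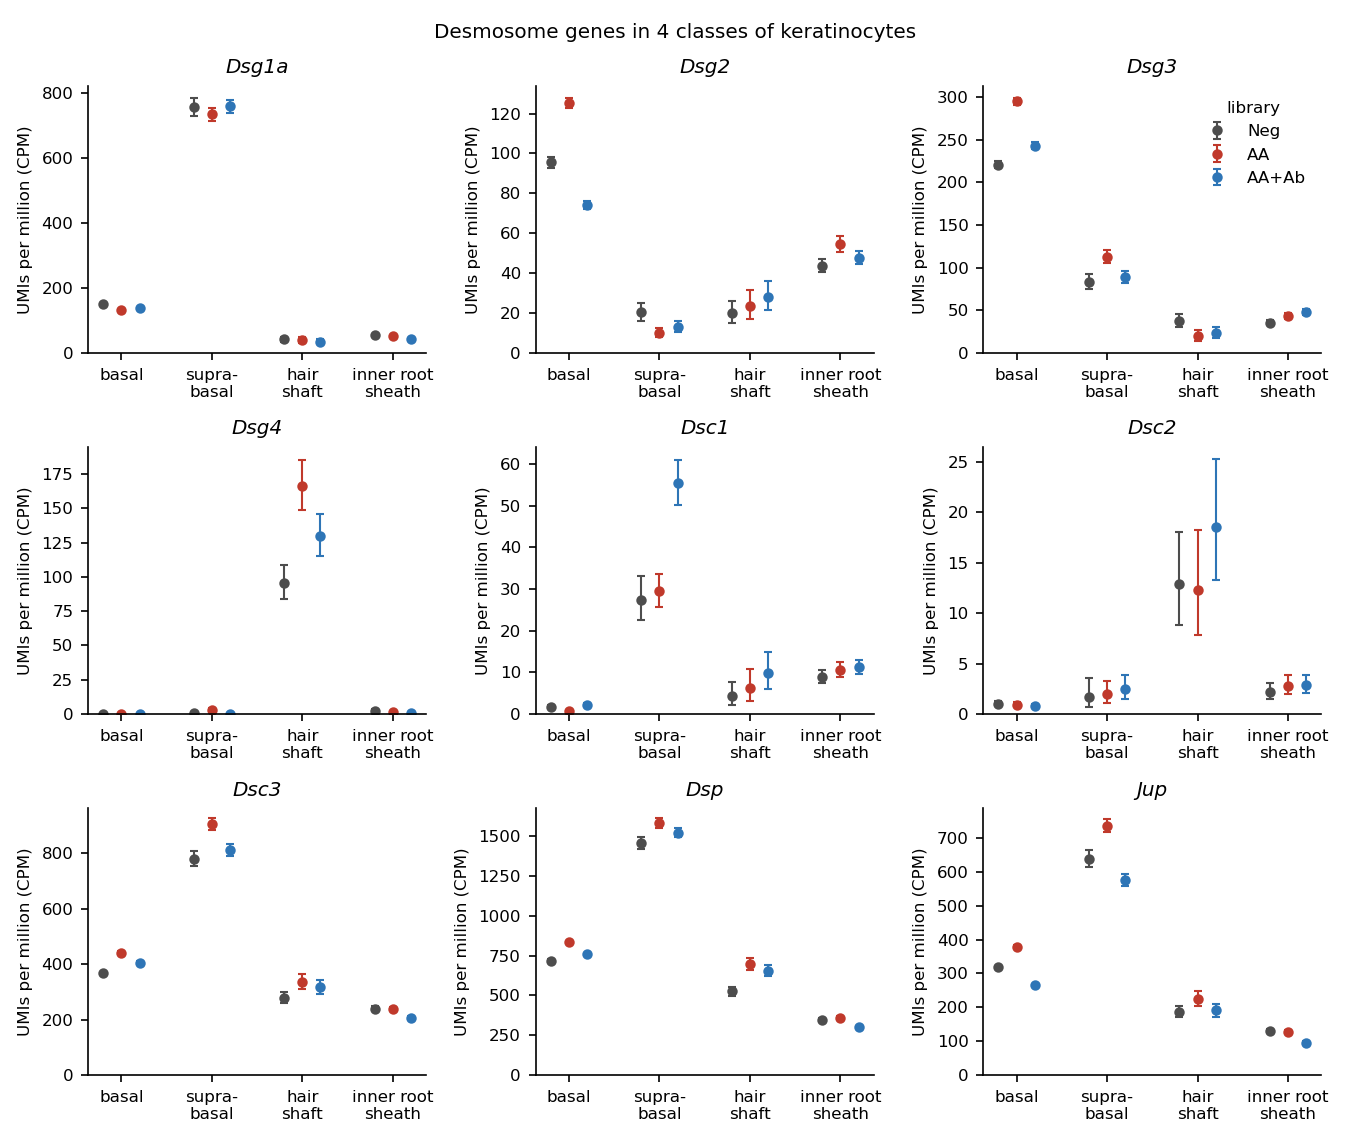
UMIs per 1000000 (CPM, linear axes from 0) of the 9 desmosome genes in basal, suprabasal, hair shaft and inner root sheath cells. Each point is 1 library (grey Neg, red AA, blue AA+Ab) and bars are exact Poisson 95% intervals, which cover counting error only. *Dsg1a*, *Dsc3*, *Dsp* and *Jup* peak in suprabasal cells, *Dsg2* and *Dsg3* in basal cells, and *Dsg4* and *Dsc2* in hair shaft cells.

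*Dsc1*, the desmocollin of the upper epidermis, was low in all classes and highest in suprabasal cells, with 27.5, 29.5 and 55.4 CPM in Neg, AA and AA+Ab. Basal cells had 1.70, 0.808 and 2.26 CPM, hair shaft cells 4.29, 6.13 and 9.72 CPM, and inner root sheath cells 8.84, 10.5 and 11.2 CPM. In T cells a single UMI was found over the 3 libraries, so the values in the follicle classes were above that level. The log2 difference of suprabasal over basal cells was 4.73 ± 0.23 (edgeR adjusted p = 4.47e-09). The UMIs were uneven between cells: 1 suprabasal cell of AA+Ab held 59 of the 405 UMIs there, and 13.3% to 18.7% of suprabasal cells had any.

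*Dsc2*, the widely expressed desmocollin, was low in all classes and highest in the hair shaft, with 12.9, 12.3 and 18.5 CPM in hair shaft cells of Neg, AA and AA+Ab. Inner root sheath cells had 2.18, 2.80 and 2.88 CPM, suprabasal cells 1.72, 2.0 and 2.46 CPM, and basal cells 1.02, 0.940 and 0.789 CPM. Hair shaft cells had the highest and basal cells the lowest values in every library, and neither range overlapped with another class. The hair shaft had a log2 difference of 3.80 ± 0.27 over basal cells (edgeR adjusted p = 5.16e-08) and 2.59 ± 0.27 over inner root sheath cells. The latter call was lost when cells with at least 3 proliferation UMIs were left out (1.10, edgeR adjusted p = 0.0579). Inner root sheath cells exceeded basal cells by 1.21 ± 0.25 (edgeR adjusted p = 0.0006), which was under 2-fold (0.79) without cells with upper follicle markers. The excess of suprabasal over basal cells was 1.31 ± 0.30 and was lost without AA+Ab (1.04, edgeR adjusted p = 0.0691).

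*Dsc3*, the desmocollin of the lower epidermis, was the main desmocollin in every class. Suprabasal cells had 781, 906 and 812 CPM in Neg, AA and AA+Ab, basal cells 368, 442 and 406 CPM, hair shaft cells 280, 338 and 317 CPM, and inner root sheath cells 240, 239 and 206 CPM. The ranges of the 4 classes did not overlap and T cells had 24.8 to 44.5 CPM. Suprabasal cells exceeded basal cells by a log2 difference of 1.17 ± 0.09 (edgeR adjusted p = 2.61e-07). Hair shaft cells were below basal cells by less than 2-fold (-0.56 ± 0.09), and inner root sheath cells by more (-1.11 ± 0.09).

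*Dsp*, the link to the keratin filaments, was the most abundant member in each class. It had 1456, 1581 and 1521 CPM in suprabasal cells of Neg, AA and AA+Ab, 718, 836 and 757 CPM in basal cells, 525, 698 and 655 CPM in hair shaft cells, and 348, 358 and 300 CPM in inner root sheath cells. *Jup*, which binds the cadherin tails and also serves adherens junctions, had 639, 736 and 577 CPM in suprabasal, 319, 379 and 266 CPM in basal, 187, 226 and 191 CPM in hair shaft and 131, 126 and 94.8 CPM in inner root sheath cells. Both genes took the order suprabasal, basal, hair shaft, inner root sheath in every library, the same order as *Dsc3*. T cells had 61.5 to 81.5 CPM of *Dsp* and 51.0 to 99.1 CPM of *Jup*, the highest T cell levels of the 9 genes. *Jup* exceeded *Dsp* in the T cells of Neg and AA+Ab but not of AA, and in no keratinocyte class. The part of free keratinocyte RNA in these T cell levels was not tested. The *Jup* values of the inner root sheath were close to those of T cells.

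Suprabasal cells exceeded basal cells in *Dsp* (log2 difference 1.12 ± 0.09, edgeR adjusted p = 4.50e-07) and *Jup* (1.16 ± 0.10, edgeR adjusted p = 9.15e-07). Without basal cells holding follicle marker UMIs, *Jup* (0.85) and *Dsc3* (0.96) were under 2-fold, and *Dsp* (0.93) was without cells with a proliferation UMI. Inner root sheath cells were lower than basal cells in both (*Dsp* -1.48 ± 0.09, *Jup* -1.74 ± 0.10). Hair shaft cells were lower than basal cells by less than 2-fold (*Dsp* -0.48 ± 0.09, *Jup* -0.84 ± 0.10). Hair shaft cells exceeded inner root sheath cells in *Dsp* by 1.00 ± 0.09, a value at the 2-fold limit that fell under it in 8 of the alternative analyses. There were 2.15 to 2.85 *Dsp* UMIs per *Jup* UMI in basal and suprabasal cells and 2.65 to 3.43 in both follicle classes, and the ratio was highest in AA+Ab within each class.

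Read over the list, 6 members were called higher and 2 lower in suprabasal than in basal cells, where 6.41% of all genes tested were called higher and 9.94% lower. The median log2 difference was 1.17 over the members and -0.0026 over all genes. The medians of the members were -0.56 in hair shaft and -1.29 in inner root sheath against basal cells, and those of all genes -0.051 and -0.012. In hair shaft against basal cells 3 members were higher (*Dsg4*, *Dsc1*, *Dsc2*) and 3 lower (*Dsg1a*, *Dsg2*, *Dsg3*), against 13.3% and 21.9% of all genes. In inner root sheath against basal cells 3 were higher and 6 lower, against 17.2% and 21.2%.

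Against suprabasal cells, the hair shaft had 2 members higher (*Dsg4*, *Dsc2*) and 6 lower, with 14.0% and 20.8% of all genes called higher and lower. The inner root sheath had 1 higher (*Dsg2*) and 6 lower, with 18.9% and 21.5% of all genes. Of those 6, *Dsg3* (log2 difference -0.34, edgeR adjusted p = 0.0816) lost its call without cells with at least 3 proliferation UMIs, and *Dsc1* (-0.85) without cells with upper follicle markers. Without cells with any proliferation UMI, both were lost (*Dsg3* -0.15, *Dsc1* -0.60). That step left 18, 34 and 58 inner root sheath cells in Neg, AA and AA+Ab. In hair shaft against inner root sheath cells *Dsg4*, *Dsc2* and *Dsp* were higher and none was lower, with 4.28% and 8.91% of all genes. The adjusted p alone was passed by 6 members, and by 4477 of the 14038 genes tested. Members were called lower in the hair shaft in some alternatives. These were *Dsg2* (-1.99) and *Dsg3* (-2.06) without cells with at least 3 proliferation UMIs, *Dsg1a* (-1.25), *Dsg2* (-1.29) and *Dsc1* (-1.67) with 2 times the marker minimum, and *Dsg2* (-1.08) without AA+Ab.

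**Figure D2:**
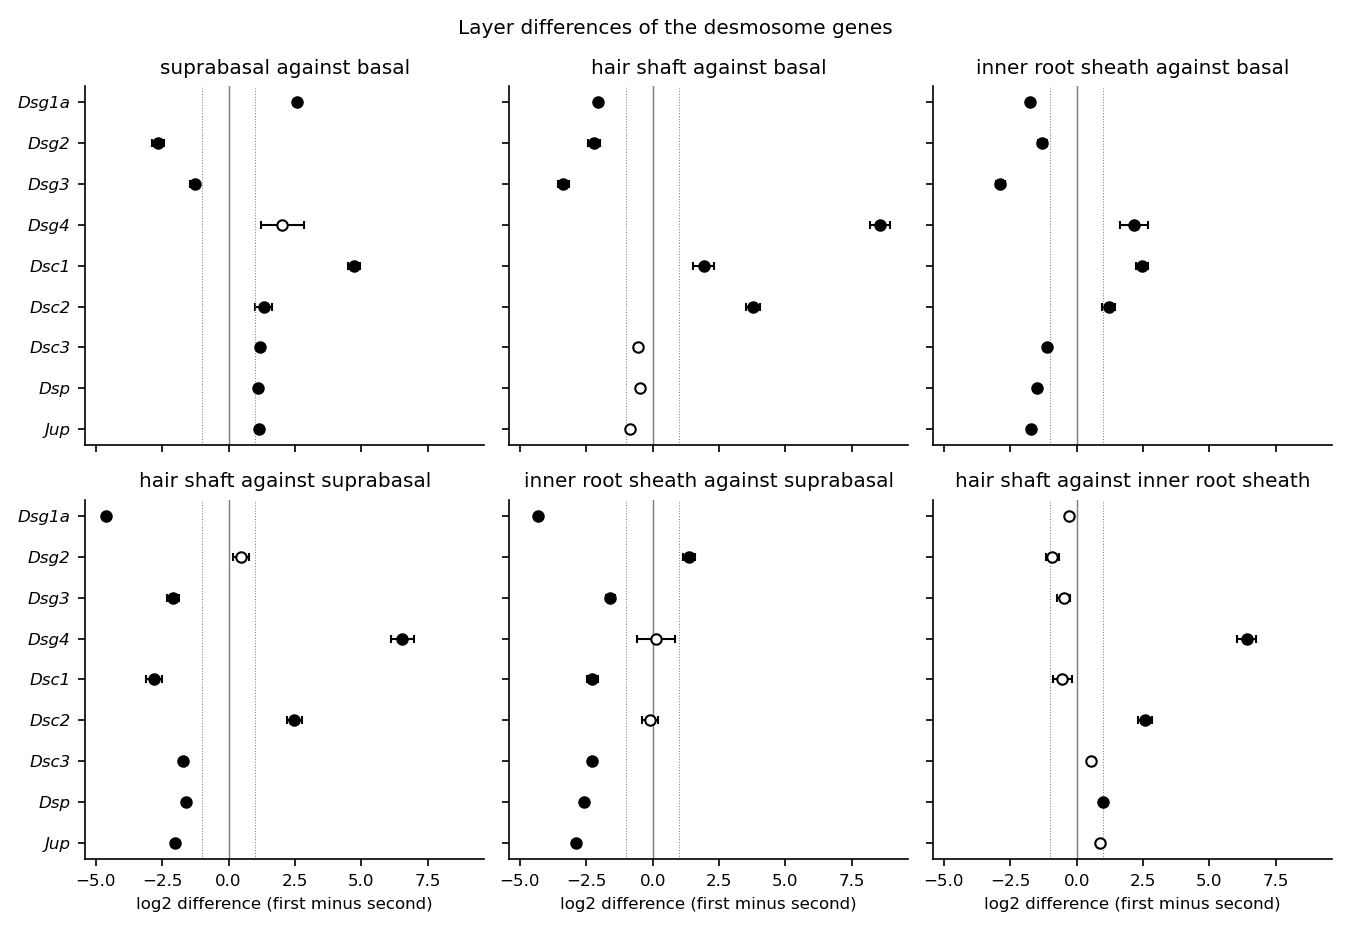
Log2 differences between layers (first minus second) from the edgeR fit to the 12 sums, with bars of the SE derived from its F statistic. Filled points passed an adjusted p of 0.05 and a 2-fold difference (dotted lines), and open points did not. The 5 genes *Dsg1a*, *Dsc1*, *Dsc3*, *Dsp* and *Jup* lie to the right of 0 in suprabasal against basal cells and to the left in both follicle classes against suprabasal cells.

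The make-up of the desmoglein UMIs changed with the layer. In basal cells *Dsg3* was 46.4%, 52.6% and 52.3% of all desmoglein UMIs (6 genes, with *Dsg1b* and *Dsg1c*) in Neg, AA and AA+Ab, *Dsg1a* 31.7%, 23.5% and 29.6%, and *Dsg2* 20.1%, 22.4% and 15.9%. In suprabasal cells *Dsg1a* was 84.0%, 78.7% and 82.9%, and *Dsg3* was 9.21% to 12%. In the hair shaft *Dsg4* was the largest share with 47.8%, 64.8% and 58.8%. The inner root sheath had no dominant desmoglein, with *Dsg1a* at 30.7% to 39.4%, *Dsg2* at 30.7% to 35.3% and *Dsg3* at 25.0% to 33.2%.

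Summed, the desmogleins had 465 to 560 CPM in basal, 902 to 934 CPM in suprabasal, 201 to 257 CPM in hair shaft and 143 to 154 CPM in inner root sheath cells. The copy *Dsg1b* followed *Dsg1a* at a lower level, with 39.2 to 73.5 CPM in suprabasal and 8.39 to 9.52 CPM in basal cells, and *Dsg1c* was at 0 in the hair shaft and at most 1.47 CPM in the other classes. The desmocollins changed less in make-up. *Dsc3* was 91.8% to 99.6% of their UMIs in each class and library, *Dsc1* reached 3.15% to 6.36% in suprabasal cells, and *Dsc2* reached 3.44% to 5.37% in the hair shaft.

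**Figure D3:**
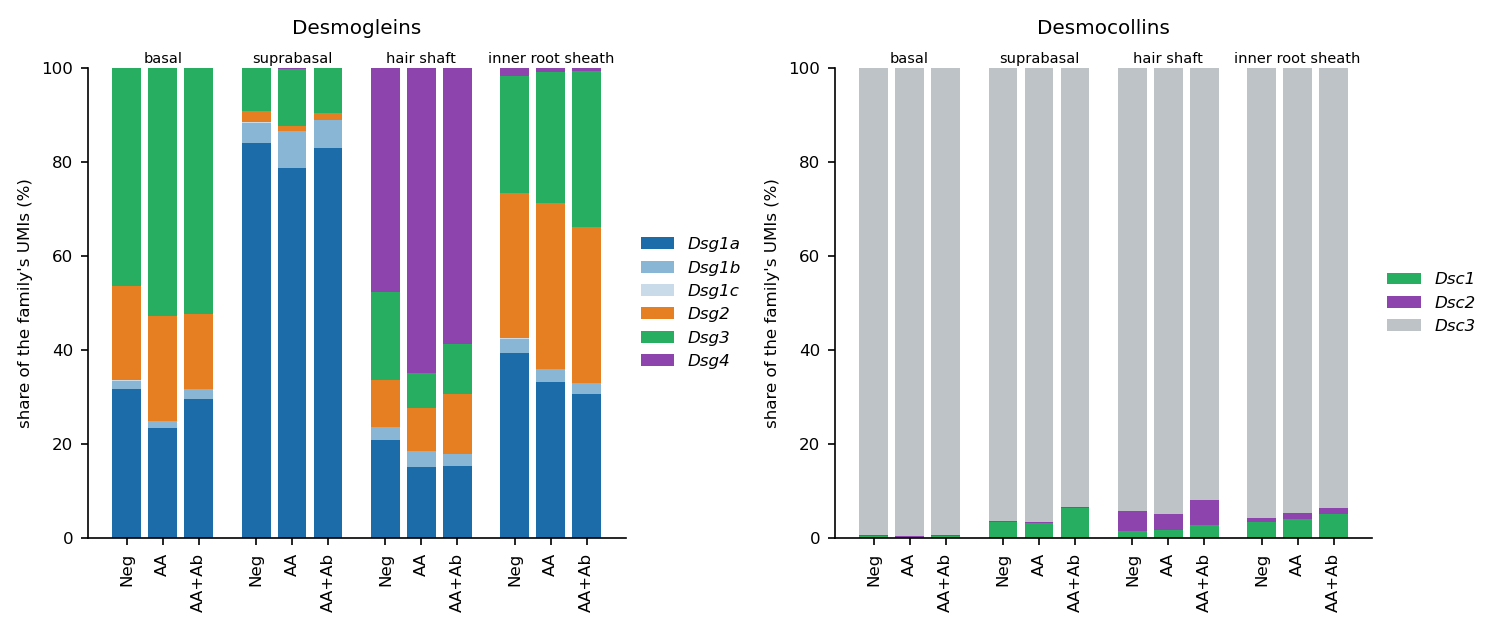
Stacked bars of the share (%) of desmoglein UMIs (left) and desmocollin UMIs (right) that each gene takes, per library within each class of keratinocytes. The leading desmoglein is *Dsg3* in basal, *Dsg1a* in suprabasal and *Dsg4* in hair shaft cells, while *Dsc3* holds at least 91.8% of the desmocollin UMIs in every bar.

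Within basal and suprabasal cells, the members were then followed over 6 steps of the share of suprabasal marker UMIs in a cell, as a description without a test. None of the 9 genes is among the markers. From cells under 0.1% to cells with at least 4%, *Dsg1a* went from 131 to 1192 CPM in Neg, from 118 to 1253 in AA and from 122 to 1317 in AA+Ab, and each step was above the one before. *Dsp* went from 675 to 1634, from 795 to 2310 and from 718 to 2275 CPM, and *Jup* from 303 to 755, from 358 to 846 and from 246 to 727 CPM. *Dsg2* went the opposite way, from 103 to 12.2 CPM in Neg, from 134 to 6.45 in AA and from 79.4 to 5.83 in AA+Ab.

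*Dsg3* was lower only at later steps. It was still 190, 307 and 244 CPM in the cells with 0.1% to 0.5% suprabasal UMIs of Neg, AA and AA+Ab, near the 226, 293 and 243 CPM of the cells under 0.1%, and ended at 40.6, 50.9 and 40.8 CPM. Over the same first step *Dsg2* went to 52.2, 63.3 and 44.9 CPM. *Dsc1* had no steady course up to 2% (4.59 to 16 CPM at 1% to 2%) and went from 21.3, 17.6 and 36.3 CPM at 2% to 4% to 58.5, 115 and 168 CPM at 4% and over. The last step rests on 27 Neg, 64 AA and 61 AA+Ab cells.

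**Figure D4:**
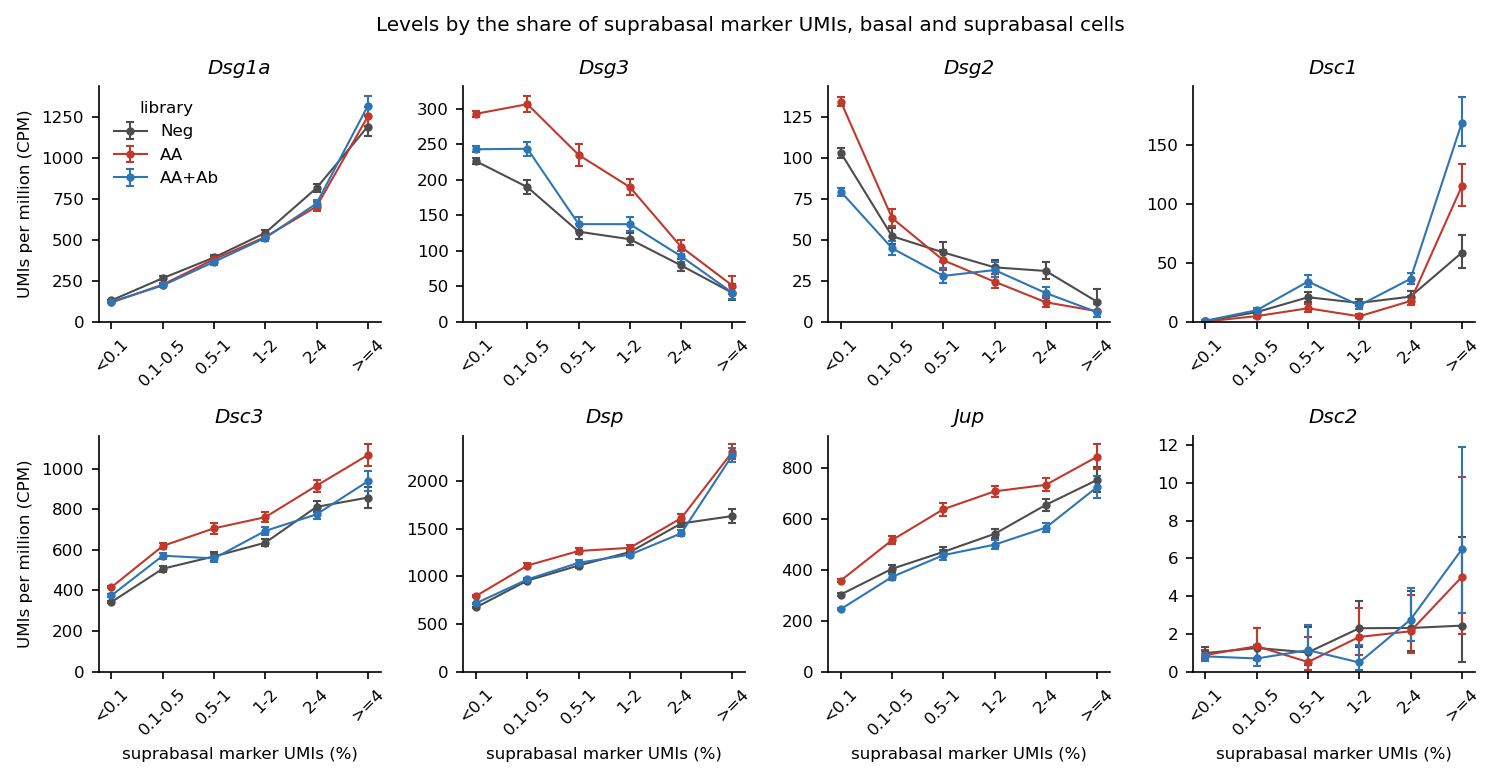
CPM (linear axes from 0) of 8 desmosome genes by the share of suprabasal marker UMIs per cell (%), over basal cells, suprabasal cells and cells passing as both, with 1 line per library and exact Poisson 95% intervals. *Dsg1a*, *Dsp* and *Jup* are higher at each further step, *Dsg2* is lower from the first step on, *Dsg3* only later, and *Dsc1* is highest in the last.

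Cells between both classes took intermediate values. Cells passing as both basal and suprabasal had 570, 469 and 507 CPM of *Dsg1a* in Neg, AA and AA+Ab and 111, 218 and 131 CPM of *Dsg3*. A droplet with 2 cells would also lie between them, and 7.85%, 20.8% and 17.6% of these cells were scored as doublets, against 5.92% to 8.32% of basal cells. The number scored in a library was set in advance, at 0.8% of its cells per 1000 barcodes. The shares are therefore not measured doublet rates. The part of such droplets in these values was not tested.

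*Dsg4* was also found in cells below the hair shaft minimum. Hair shaft cells were pooled here with the cells that passed no minimum and were not called T cells. In Neg and AA the latter also carried markers of fibroblasts, melanocytes and muscle. Cells under 0.1% are therefore outside the hair shaft class, and their type was not determined. Cells with 0.03% to 0.1% of their UMIs in hair keratins had 48.8, 62.4 and 34.1 CPM in Neg, AA and AA+Ab, those with 0.1% to 0.3% had 62.9, 170 and 118 CPM, and those over 0.3% had 127, 163 and 141 CPM. Cells of the same pool under 0.03% had 1.59 to 2.69 CPM. *Dsc2* had 8.89 to 9.44 CPM at 0.1% to 0.3% and 15.4 to 26.9 CPM over 0.3%. *Jup* had 149 to 168 CPM and 213 to 284 CPM, and *Dsp* 446 to 609 CPM and 603 to 787 CPM. Proliferation genes had 1503 to 1697 CPM and 48.5 to 541 CPM in the same steps, and their part in these values was not tested.

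Inner root sheath cells, pooled in the same way with cells that passed no minimum, also differed by marker level. In cells with 0.1% to 0.3% of their UMIs in its markers, *Dsg1a* had 26.7, 26.0 and 22.0 CPM in Neg, AA and AA+Ab, and in the 163, 148 and 172 cells over 0.3% it had 125, 129 and 126 CPM. *Dsc1* had 1.81 to 3.95 CPM in the former and 24.6, 37.0 and 37.8 CPM in the latter. *Dsp* went from 241, 256 and 213 CPM to 599, 669 and 627 CPM, and *Dsc3* from 193, 200 and 172 CPM to 349, 356 and 334 CPM. *Dsg2* and *Dsg3* showed no such common step. The levels of the inner root sheath as a whole thus depend on the marker minimum. With 2 times the marker minimum, *Dsg1a* (log2 difference -0.96), *Dsc3* (-0.76) and *Dsp* (-0.98) were no longer 2-fold below basal cells.

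Shares of cells with a UMI were compared after each cell had been thinned to 2000 UMIs, because inner root sheath cells had median depths of 21403 to 25284.5 UMIs against 10625 to 12344 in basal cells. Of hair shaft cells, 74.5%, 73.2% and 76.4% had a *Dsg4* UMI in Neg, AA and AA+Ab, and 18.4%, 29.7% and 23.8% after thinning, against 0 to 0.30% of T cells. *Dsg1a* was found in 92.3% to 98.0% of suprabasal cells, and in 69.9% to 71.8% after thinning, against 22.6% to 25.3% of thinned basal cells. *Dsg3* was found in 31.1% to 39.3% of thinned basal and 13.5% to 20.2% of thinned suprabasal cells. T cells had a *Dsp* UMI in 17.1% to 22.9% of cells and a *Jup* UMI in 14.2% to 40.6%, at median depths of 3951.5 to 4986 UMIs, and whether these are free RNA or the T cells' own was not tested. Thinning left out 0 to 16 cells of each suprabasal, hair shaft and inner root sheath class and 81 to 154 basal cells per library.

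Among the other desmosome genes, 8 of 9 were tested. In suprabasal against basal cells 5 were higher (*Dsg1b*, *Pkp1*, *Perp*, *Ppl* and *Evpl*), 1 was lower (*Pkp4*), and their median log2 difference was 1.21. *Pkp1*, the plakophilin of stratified epithelia, had 380 to 461 CPM in suprabasal and 188 to 215 CPM in basal cells. The cornified envelope proteins *Ppl* and *Evpl* were higher in suprabasal than in basal cells by log2 differences of 1.35 ± 0.07 and 1.62 ± 0.09. *Pkp2*, known from the heart and simple epithelia, was higher in the hair shaft (8.33 to 9.19 CPM) and the inner root sheath (2.46 to 5.53 CPM) than in basal cells (0.278 to 0.454 CPM). *Pkp1*, *Pkp3*, *Perp*, *Ppl* and *Evpl* were lower in hair shaft and in inner root sheath cells than in basal cells.

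Corneodesmosomes are the desmosomes of the cornified layer. All 4 tested (*Cdsn*, *Klk5*, *Klk7* and *Spink5*) were higher in suprabasal than in basal cells with a median log2 difference of 4.47, and all 4 were lower in hair shaft and in inner root sheath cells than in suprabasal cells. *Cdsn*, which encodes corneodesmosin, had 12.7 to 53.7 CPM in suprabasal and 0.305 to 0.557 CPM in basal cells. *Spink5*, an inhibitor of the kallikreins that cut corneodesmosomes, had 342 to 460 CPM against 23.2 to 37.2 CPM.

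Adherens and tight junctions also join keratinocytes. Of 9 adherens junction genes, 1 was higher (*Nectin4*) and 1 lower (*Cdh3*, P-cadherin) in suprabasal than in basal cells and 7 were not called, with a median log2 difference of 0.12. *Cdh1*, E-cadherin, was lower in hair shaft (-1.96 ± 0.13) and inner root sheath (-2.44 ± 0.12) than in basal cells on the log2 scale. Its suprabasal value did not pass (-0.23 ± 0.11, edgeR adjusted p = 0.124) and overlapped with the basal values. Over the 9 genes, 1 was higher and 3 lower in hair shaft than in basal cells (median log2 difference 0.13). In inner root sheath against basal cells 1 was higher and 2 lower (median -0.54). Of all genes tested, 13.3% were higher and 21.9% lower in the former pair, and 17.2% and 21.2% in the latter. Of 7 tight junction genes, *Cldn4* and *Ocln* were higher in suprabasal cells and none was lower.

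*Gja1*, the gap junction protein connexin 43, was higher in hair shaft and in inner root sheath than in basal cells, by log2 differences of 1.52 ± 0.07 (edgeR adjusted p = 1.65e-09) and 1.07 ± 0.07 (edgeR adjusted p = 1.81e-08). It had 572 to 680 CPM in hair shaft, 483 to 506 CPM in inner root sheath, 184 to 209 CPM in basal and 75.3 to 88.3 CPM in suprabasal cells.

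The patterns of some members over the 12 sums were alike. As a description over these sums, which share libraries and classes, log2(CPM + 1) of *Dsp*, *Jup* and *Dsc3* had Pearson's r of 0.98 with each other, and *Dsg4* and *Dsc2* of 0.95. Among 8570 other genes, those most like *Dsg1a* were *Tmprss4* (r = 0.997), *Npl* (0.994) and *Dbnl* (0.991). *Dsg3* was most like *Pkia*, *Col4a5* and *Col4a6* (all 0.98), *Dsg2* like *Bcam*, *S100a6* and *Ccdc107* (0.97, 0.96 and 0.96), and *Dsg4* like *Osbp*, *Selenbp1* and *Usp12* (0.99, 0.97 and 0.97). *Selenbp1* had 680 to 1267 CPM in the hair shaft and at most 10.5 CPM elsewhere.

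*Dsc1* was most like *Endou*, *Agpat3* and *Ybx3* (0.97, 0.96 and 0.96), *Dsc2* like *Emc2*, *Pdcd4* and *Spint1* (all 0.98), and *Dsc3* like *Baiap2*, *Aldh3b2* and *Abhd5* (0.99, 0.99 and 0.98). *Dsp* was most like *Bnipl*, *Fam25c* and *Aldh3b2* (0.99, 0.98 and 0.98), and *Jup* like *Mapkapk3*, *Abhd5* and *Atp6v1a* (0.99, 0.99 and 0.98).

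The libraries were compared within each class as ratios of CPM with exact conditional 95% intervals, which cover counting error only. With 1 library each there is no replicate, so no p-value is given. Genes with at least 20 UMIs in both libraries were counted as past the fold when they differed by at least 1.5-fold in either direction. The comparisons of AA and of AA+Ab with Neg share the Neg library.

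In AA against Neg, past the fold were 1 of 8 members in basal cells (*Dsc1*), where 11.7% of all genes were, 1 of 7 in suprabasal cells (*Dsg2*, with 12% of genes), 2 of 8 in hair shaft cells (*Dsg3* and *Dsg4*, with 13.7%) and 0 of 8 in inner root sheath cells (4.78%). In AA+Ab against Neg these were 0 of 8 (8.36% of genes), 2 of 7 (*Dsg2* and *Dsc1*, with 12.2%), 1 of 8 (*Dsg3*, with 9.94%) and 0 of 8 (7.64%). In AA+Ab against AA they were 2 of 9 (*Dsg2* and *Dsc1*, with 12%), 1 of 7 (*Dsc1*, with 10.1%), 1 of 8 (*Dsc2*, with 12.4%) and 0 of 8 (9.04%). Counts this small beside those shares are not a result about the list.

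In basal cells the most precise ratios were modest. *Dsg3* was 1.34 times (1.31 to 1.37) and *Dsg2* 1.31 times (1.27 to 1.36) as high in AA as in Neg, *Dsc3* 1.20, *Jup* 1.19 and *Dsp* 1.16 times, and *Dsg1a* 0.870 times (0.845 to 0.896). *Dsc1* was 0.475 times (0.337 to 0.665) as high, from 61 and 90 UMIs. The median log2 ratio over genes was -0.09 in this comparison and 0.23 over the 8 members. In AA+Ab against AA, *Dsg2* was 0.591 times (0.570 to 0.612) and *Jup* 0.701 times (0.688 to 0.715) as high. *Jup* was lower in AA+Ab than in AA in each of the 4 classes, with ratios from 0.701 in basal to 0.845 in hair shaft cells. The bulge and outer root sheath markers had 274, 342 and 307 CPM in the basal cells of Neg, AA and AA+Ab and the upper follicle markers 819, 738 and 1157 CPM, and their part in these ratios was not tested.

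In hair shaft cells, *Dsg4* in AA was 1.74 times (1.47 to 2.06) that in Neg, from 326 and 246 UMIs in 112 and 98 cells. The ratio was 1.46 among cells with 2 times the marker minimum and 1.25 without cells with at least 3 proliferation UMIs. *Dsg3* in the hair shaft was 0.519 times (0.346 to 0.762) as high in AA as in Neg, from 38 and 96 UMIs. Proliferation markers had 1112, 879 and 764 CPM in the hair shaft cells of Neg, AA and AA+Ab, and their part in this ratio was not tested.

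In suprabasal cells, *Dsg2* in AA was 0.498 times (0.360 to 0.689) that in Neg, from 76 and 83 UMIs, and 0.756 times as the mean over cells. *Dsc1* in AA+Ab was 2.02 times (1.63 to 2.51) that in Neg and 1.88 times (1.59 to 2.22) that in AA. Without cells with at least 0.1% of their UMIs in upper follicle markers, these *Dsc1* ratios were 1.39 and 1.32, and without cells with a proliferation UMI they were 1.28 and 0.970. The upper follicle list (*Krt79*, *Krt17*, *Cst6* and *Defb6*) was itself uneven between libraries in this class, with 6376, 2565 and 5960 CPM in Neg, AA and AA+Ab, and T cell markers had 126, 87.8 and 112 CPM. The part of these markers in the ratios was not tested. *Dsg1a* in suprabasal cells was 0.971 times (0.929 to 1.01) as high in AA as in Neg, an interval that holds 1.

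**Figure D5:**
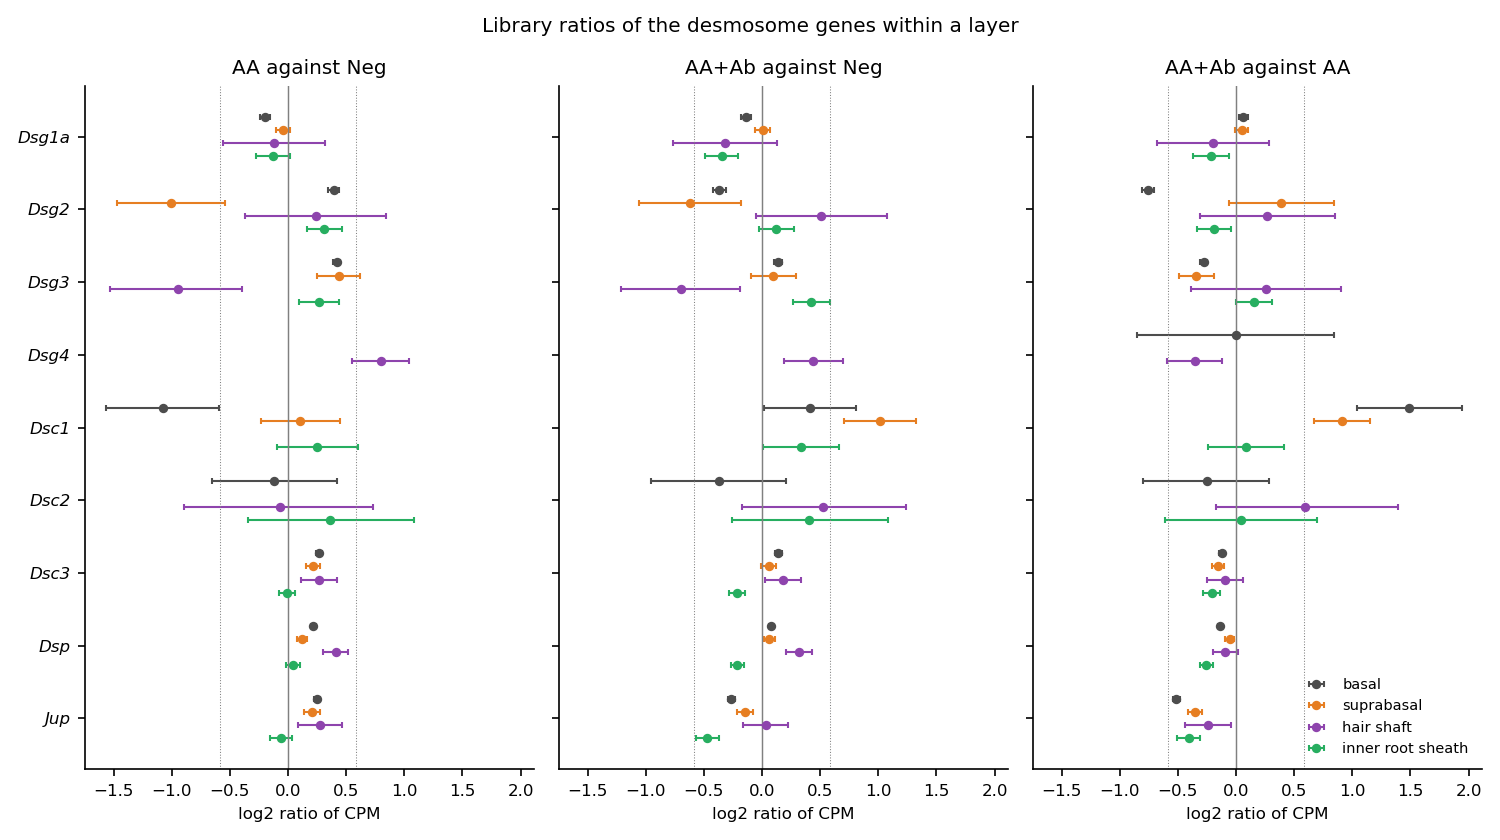
Log2 ratios of CPM between libraries for each desmosome gene, by class of keratinocytes (colours), with exact conditional 95% intervals for counting error, for genes with at least 20 UMIs in both libraries. Dotted lines mark 1.5-fold. Most points lie between the lines, and the points outside include *Dsg4* in the hair shaft (AA against Neg), *Dsg2* in basal cells (AA+Ab against AA) and *Dsc1* in suprabasal cells (AA+Ab against both).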

How the data were processed

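Dorsal skin cells of 3 libraries (Neg, AA and AA+Ab) were captured with 10x 3′ v3.1 chemistry. The deposited values are unnormalized UMI counts, which the authors obtained with Cell Ranger 7.2.0 against mm10, and FastQC 0.11.7 is also listed in the submitters' processing notes. The annotation release is not given in the sources used here. Whole skin was pooled before capture, so a count cannot be traced to a mouse.

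Cells with at most 10% mitochondrial UMIs and at least 200 genes were kept. Marker minimums were set after the distributions of marker shares had been seen, and the members and gene lists were chosen with earlier results of these data known. Cells passing as 2 classes were left out of both. Other cells scored as doublets by simulation were kept, and removed in an alternative. UMIs were summed per class and library, and layers were compared with edgeR 4.0.16 in R 4.3.3 (quasi-likelihood test, TMM, filterByExpr, library as a block, Benjamini-Hochberg adjustment over genes within each of 6 pairs of layers). The SE was derived from the F statistic. No pair of layers can be tested by sign changes of 3 libraries alone, where the smallest two-sided p is 0.25. Ratios between libraries used exact conditional intervals in scipy 1.17.1, and intervals of levels are exact Poisson 95% intervals for counting error only.

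Named genes were all 9 members. From each list they were every gene where a count was 5 or fewer, otherwise the 3 with the largest called difference. The 3 genes most like each member by Pearson's r were also named. Additional values, such as those of *Pkp1* and *Cdh1*, were chosen after their values were seen. On simulated data for suprabasal against basal cells with 14038 genes, the adjusted p alone was checked, without the 2-fold limit of a call. In the right direction, 83 of 100 genes changed 2-fold and 96 of 100 changed 4-fold passed it. It was also passed by 8 unchanged genes. The simulation gave all genes the same dispersion, let libraries differ only in depth and changed few genes. In the data 6110 of the 14038 genes passed the adjusted p in this pair, so these counts do not carry over to it. The share of changed genes that the full call would find was not simulated. Alternatives were DESeq2 1.42.0, its size factors, no count filter, no library block, each library left out, stricter cell sets, and other scalings. Leaving out cells with upper follicle markers or with at least 3 proliferation UMIs was chosen after seeing the data. Counts over the gap junction and hemidesmosome lists are not reported here.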

Additional observations from a re-analysis of the deposited data

Results flagged for a closer look

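Some ratios between libraries pointed in opposite directions in different classes, with both counting intervals off 1. Each rests on 1 library per group, and the difference between the classes was not tested.

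*Dsg2* in AA was 1.31 times that in Neg in basal cells and 1.24 times in inner root sheath cells, but 0.498 times in suprabasal cells. *Dsg3* in AA was 1.34 times that in Neg in basal, 1.35 times in suprabasal and 1.20 times in inner root sheath cells, but 0.519 times in hair shaft cells. Its inner root sheath ratio ranged from 0.853 without cells with at least 3 proliferation UMIs to 2.14 without cells with any. The latter step left 18 Neg and 34 AA cells. The AA hair shaft level of 19.4 CPM was at that of the AA T cells. *Dsg3* in AA+Ab was 1.10 times that in Neg in basal and 1.34 times in inner root sheath cells, and 0.619 times in hair shaft cells.

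*Dsc3* in AA+Ab was 1.10 times that in Neg in basal and 1.13 times in hair shaft cells, and 0.861 times in inner root sheath cells. The hair shaft ratio was 0.807 without cells with a proliferation UMI, from 13 Neg and 33 AA+Ab cells. The inner root sheath ratio was 1.05 without cells with at least 3 proliferation UMIs. *Dsp* in AA+Ab was 1.06 times that in Neg in basal, 1.04 times in suprabasal and 1.25 times in hair shaft cells, and 0.863 times in inner root sheath cells. These *Dsp* ratios turned in basal cells without follicle marker UMIs (0.945), in suprabasal cells without upper follicle markers (0.964) and in inner root sheath cells without at least 3 proliferation UMIs (1.29). *Dsg1a* in AA+Ab was 1.05 times that in AA in basal cells and 0.861 times in inner root sheath cells.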

How the results depend on the processing

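Of the layer differences of single members under the alternatives, 757 kept their direction and their side of the threshold, 27 lost the call, 17 gained it and 9 turned their direction. In hair shaft against inner root sheath cells the 3 members called became 5 with 2 times the marker minimum and 6 with the adjusted p alone. In that pair 4477 of the 14038 genes tested passed the adjusted p alone. Of members past 1.5-fold over the 4 classes, AA+Ab against Neg went from 3 to 6 as the mean over cells, to 6 with 2 times the marker minimum and to 1 without cells with a proliferation UMI. AA+Ab against AA went from 4 to 2 without cells with upper follicle markers. The cause was not tested.

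Directions turned in the following log2 values. With a library left out, *Dsg4* ranged from -0.43 to 2.84 in suprabasal against basal cells and from -0.62 to 2.86 in inner root sheath against suprabasal cells, and it was -0.36 there without upper follicle markers. *Dsg2* in inner root sheath against basal cells was 0.19 without cells with a proliferation UMI. *Dsc2* in inner root sheath against suprabasal cells was 0.49 with 2 times the minimum, 3.08 without a proliferation UMI, 1.73 without 3 of them and 0.0015 without basal cells with follicle marker UMIs. Leaving out cells with a proliferation UMI kept only 18, 34 and 58 inner root sheath cells in Neg, AA and AA+Ab. It kept 13, 40 and 33 hair shaft cells, so values from that step rest on few UMIs for low genes. Between libraries, without cells with a proliferation UMI, *Dsc3* in the hair shaft was -0.13 (AA against Neg) and -0.31 (AA+Ab against Neg), and AA+Ab against AA gave -0.044 for *Dsc1* in suprabasal cells and 0.15 for *Dsg2* and *Dsp* in the inner root sheath. Without cells with 3 proliferation UMIs, the inner root sheath gave -0.23 for *Dsg3* (AA against Neg), 0.065 for *Dsc3* and 0.37 for *Dsp* (AA+Ab against Neg), and 0.056 for *Dsg2*, 0.0097 for *Dsc3* and 0.38 for *Dsp* (AA+Ab against AA). *Dsp* in AA+Ab against Neg was -0.082 in basal cells without follicle marker UMIs and -0.053 in suprabasal cells without upper follicle markers, and *Jup* in suprabasal cells was 0.011 with TMM. *Dsg2* in AA+Ab against AA in the inner root sheath was 0.031 as the mean over cells and 0.15 with 2 times the minimum.

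Depth limits *Dsc2* in each class, with 24 to 40 UMIs per library in the hair shaft, and *Dsg4* and *Dsc1* outside their main classes. The hair shaft rests on 98 to 112 cells per library.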
